A study of Mus musculus with 4 samples.

Results

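The genes described here are 36 genes of glucose breakdown and of the cell's response to low oxygen: 18 glycolytic enzymes, 3 glucose and lactate transporters and 15 targets of the hypoxia-inducible factors (HIF). They were listed by name from what is known of the pathway, with earlier results of these data known. All 36 were found among the 53379 gene identifiers of the count table, and all 36 were among the 18838 genes with enough counts to be tested. The data were RNA sequencing counts from 4 cultures labelled as cortical astrocytes of C57BL/6 mice, 2 wild type and 2 Npas3-/-. Both genotypes were grown alike in serum-containing medium from the cortex of newborn pups (postnatal day 0), were shaken to remove loosely attached cells, replated, and lysed at day 14 in vitro. The sources used here do not give how the Npas3 allele was made, the oxygen level of the incubator, or whether the 2 samples of a genotype were separate animals or cultures. The p-values therefore rest on a spread between samples that may be technical only.

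Glycolysis splits glucose into pyruvate in the cytosol and yields ATP without oxygen, and lactate dehydrogenase then turns pyruvate into lactate. Astrocytes are known for a high rate of glycolysis and for releasing lactate. HIF is a pair of bHLH-PAS proteins, an oxygen-sensitive alpha subunit and ARNT. With oxygen present, prolyl hydroxylases of the EGLN family mark the alpha subunit for destruction by the VHL complex, and without it HIF binds the core letters ACGTG or GCGTG and switches on glycolytic enzymes together with genes of mitophagy, angiogenesis and collagen modification. NPAS3 belongs to the same bHLH-PAS family as the HIF alpha subunits and also pairs with ARNT proteins. Many glycolytic enzymes are HIF targets too, and the question asked here is how the enzymes and the other HIF targets stood between the genotypes.

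The libraries held between 82965565 and 86932708 counts. Npas3 itself was counted 5129 and 8739 times in the wild-type libraries and 2055 and 1386 times in those labelled Npas3-/-, and transcript was thus still detected there (log2 fold change -1.82, adjusted p = 0.0181, edgeR; -0.65, adjusted p = 0.114, with the correction described below). Levels are given as CPM, counts scaled to a common library size, in the order wild-type replicates 1 and 2, then Npas3-/- replicates 1 and 2. Log2 fold changes are positive where Npas3-/- was higher, and a gene is called where edgeR's quasi-likelihood test gave a Benjamini-Hochberg adjusted p below 0.05 over all genes tested. The genotypes also differed in the base composition of their counts: the mean transcript GC content, weighted by counts, was 51.5% and 50.2% in wild type and 53.2% and 53.6% in Npas3-/-. Mitochondrial mRNAs took 1.68% and 3.10% of the wild-type libraries and 0.578% and 0.365% of the Npas3-/- libraries. Because of the first difference a second value, called corrected below, is shown for all 36 genes in the plot of fold changes by role and printed beside the main value of each gene that was called: it comes from the same test after each library's trend over GC content and transcript length was taken out. What produced the trend was not tested, and a real difference that runs along GC content or length would be taken out with it.

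The markers of astrocytes did not move together. Of 9 tested, 2 were called higher in Npas3-/-, Gfap (log2 fold change 1.57) and Glul (1.20), and 3 lower, Aqp4 (-4.01), Gja1 (-2.58) and Slc1a2 (-2.48), with a median of -0.25 (corrected: 2 higher, 2 lower, without Slc1a2). Their summed level, led by Glul, was 3638 and 4568 CPM in wild type and 5475 and 5606 CPM in Npas3-/-. Markers of other cell types were detected too. The sums of the oligodendrocyte lineage (1644 and 1502 CPM against 1804 and 2198), of ependymal cells (372 and 266 against 520 and 650), of microglia and macrophages (54.1 and 57.5 against 76.7 and 77.1) and of mural cells (1771 and 414 against 1926 and 2092, mostly Acta2) were higher in both Npas3-/- libraries. In these lists Cnp of the oligodendrocyte list was called higher, 1 of 6 ependymal genes higher (Pifo), 1 of 5 mural genes lower (Rgs5, -4.45), and 0 of 12 microglial genes either way. The sums of neurons (312 and 170 against 202 and 201), fibroblasts (369 and 318 against 269 and 328) and endothelial cells (16.5 and 14.7 against 20.6 and 15.2) overlapped, but single genes in them fell: Map2 (-3.70), Gad2 (-3.28) and Syt1 (-2.44) of 7 neuronal genes, Col3a1 (-1.94), Dcn (-4.96) and Igf2 (-5.64) of 8 fibroblast genes, and Tek (-8.32) of 5 endothelial genes. Tek was scarce, with 36 and 49 counts in wild type and 0 in both Npas3-/- libraries, so the size of its value is uncertain. Mog of the oligodendrocyte list and Tmem212 of the ependymal list were at 0 in every library. The part of these cells in the results below was not tested, and in bulk RNA fewer cells of a type and less RNA per cell cannot be told apart.

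Of the 36 genes 14 were called, 9 higher and 5 lower in Npas3-/-, where over all genes tested 11.6% were called higher and 21.5% lower. The called enzymes all rose, and the called HIF targets went both ways. Among the 18 enzymes 5 rose (Aldoc, Eno1, Tpi1, Aldoa and Hk1) and none fell, while among the 15 HIF targets 3 rose (Ndrg1, Egln3 and P4ha2) and 4 fell (Kdm3a, Bnip3l, Bnip3 and Pdk1). Of the transporters the glucose carrier Slc2a1 rose and the lactate carrier Slc16a1 fell. The median log2 fold change was 0.58 for the enzymes, with a spread between genes of 0.53 (SD), and 0.40 for the HIF targets, with a spread of 1.47, beside a median of -0.07 over all genes tested. Both Npas3-/- libraries lay above both wild-type libraries for 16 of 18 enzymes and for 8 of 15 HIF targets, and below them for 6 HIF targets, where 35.7% and 40.1% of all genes tested did so. The log2 fold change was above 0 for 17 enzymes (12 after the correction described above) and 9 HIF targets, and for 48.3% of all genes tested.

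**Figure D1:**
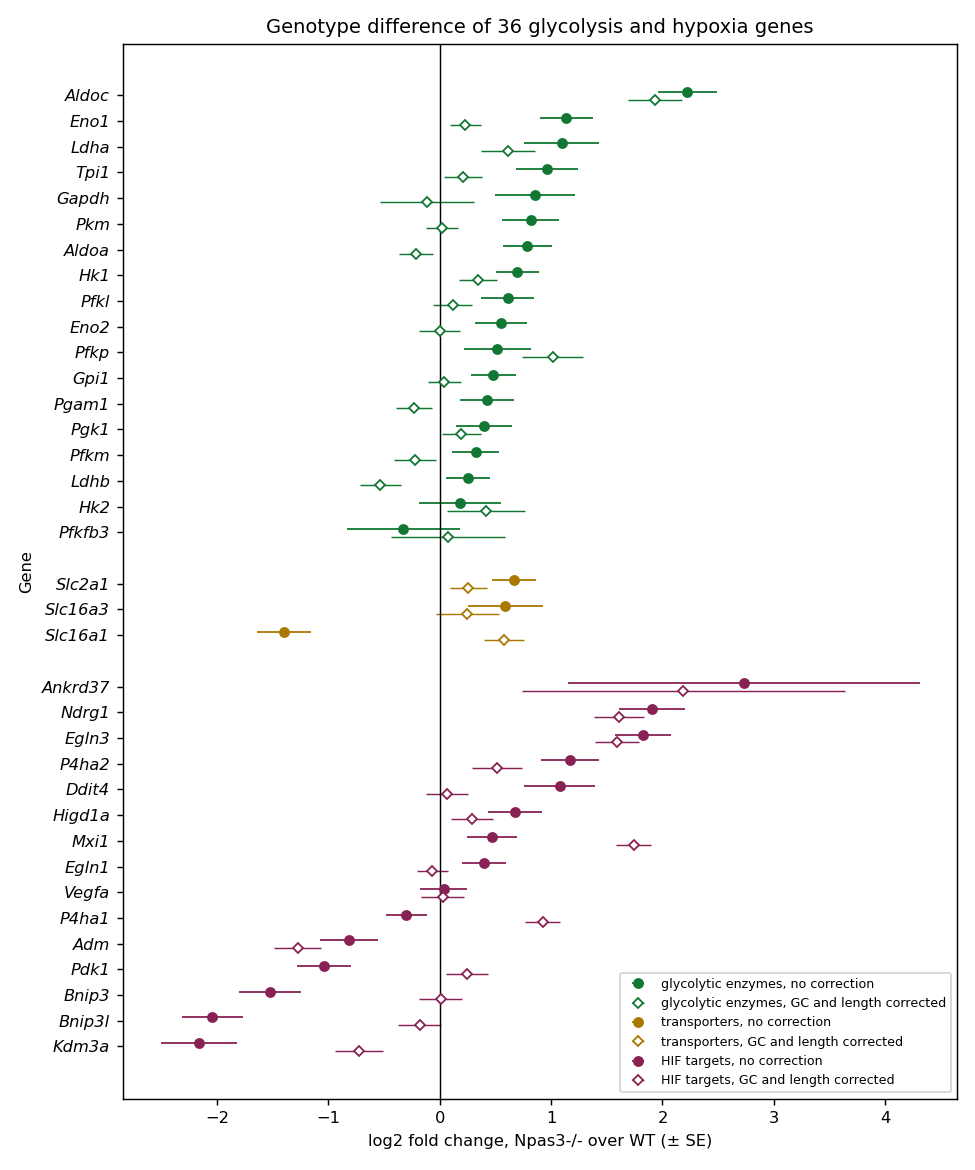
Log2 fold change (Npas3-/- minus wild type) of the 36 genes grouped by role, with bars of 1 SE from edgeR; filled circles are without correction and open diamonds after correction for GC content and length. Of the 18 enzymes 17 lie above 0 without correction and 12 with it. Of the 15 HIF targets 9 lie above 0 without correction and 11 with it, and they reach from -2.16 to 2.73 without it.

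The calls rested on few libraries. Aldoc, Ndrg1, Egln3, Bnip3l and Kdm3a were called again when wild-type replicate 1, wild-type replicate 2 or Npas3-/- replicate 1 was left out. They were not called without Npas3-/- replicate 2, where no gene of the table was (smallest adjusted p = 0.0798, with 5728 genes and 11 of the 36 at an unadjusted p below 0.05; DESeq2 on all 4 libraries called 8372 genes). Their log2 fold changes kept their sign, for Aldoc between 1.97 and 2.49, for Ndrg1 between 1.58 and 2.28 and for Egln3 between 1.56 and 2.1. Eno1, Slc16a1 and Bnip3 also lost their calls without Npas3-/- replicate 1, and Tpi1, Aldoa and Pdk1 were called again only without wild-type replicate 1. Hk1, Slc2a1 and P4ha2 were not called with any library left out. Over all genes the shares called higher and lower were 9.93% and 19% with wild-type replicate 1 left out, 2.47% and 12.8% with wild-type replicate 2 left out, 2.5% and 9.38% with Npas3-/- replicate 1 left out and 0% and 0% with Npas3-/- replicate 2 left out. Without wild-type replicate 1 Ldha, Pkm, Pfkp and Ankrd37 were called too, and without wild-type replicate 2 Adm. With the correction, leaving out either Npas3-/- library left almost no gene called, among the 36 or in the whole table. Those fits therefore say nothing particular about the calls of the 36. In them the corrected log2 fold changes kept their sign for Aldoc (1.98 without replicate 1, 1.92 without replicate 2), Ndrg1 (1.59 and 1.66) and Egln3 (1.58 and 1.64).

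With the correction 5 of the 36 genes were called higher and 1 lower, where 4.54% and 3.82% of all genes were. Of the enzymes 1 was called higher and 0 lower, and of the HIF targets 4 higher and 1 lower. Aldoc, Ndrg1 and Egln3 were called with and without it. Mxi1, P4ha1 and Adm were called only after correction, the first 2 higher and Adm lower. The median of the enzymes became 0.10 and that of the HIF targets 0.25, beside -0.03 over all genes.

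Before the values, the sequences before the start sites of 5 called genes are shown, since HIF is known to bind its core letters in such regions. RefSeq's table for GRCm38.p6 listed a promoter for 34 of the 36 genes, and the 250 bases before the start were searched for ACGTG and GCGTG on both strands (CACGT and CACGC on the strand printed). CACGTG holds the letters on both strands. They occurred in 28 of 34 windows (82.4%), that is in 11 of 13 HIF targets, 14 of 18 enzymes and 3 of 3 transporters. Of all listed promoters of that length 38.6% held them, and of those of tested genes 52.7%. The members' windows were also richer in GC, with a median of 63.4% against 59.2% in those of tested genes and 52.4% over all listed promoters. Each sequence runs 5′ to 3′ on the gene's strand, stops before the first annotated transcribed base, and has matching letters in capitals. Egln3 (chr12:54203875-54204124, minus strand) and Eno1 (chr4:150236458-150236707, plus strand) stand for genes that rose without the correction. Slc16a1 (chr3:104638414-104638663, plus strand), Pdk1 (chr2:71872974-71873223, plus strand) and Bnip3 (chr7:138909520-138909756, minus strand) stand for genes that fell without it. Of these only Egln3 was called after correction (1.59). Eno1 stood at 0.23, and Slc16a1 (0.58), Pdk1 (0.25) and Bnip3 (0.01) changed sign, so their directions depended on the correction.
Egln3: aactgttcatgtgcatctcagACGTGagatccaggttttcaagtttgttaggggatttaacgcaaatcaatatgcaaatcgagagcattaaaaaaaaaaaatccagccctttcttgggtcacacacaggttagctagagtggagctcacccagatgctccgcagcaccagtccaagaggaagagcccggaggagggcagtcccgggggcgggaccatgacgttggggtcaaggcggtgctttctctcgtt
Eno1: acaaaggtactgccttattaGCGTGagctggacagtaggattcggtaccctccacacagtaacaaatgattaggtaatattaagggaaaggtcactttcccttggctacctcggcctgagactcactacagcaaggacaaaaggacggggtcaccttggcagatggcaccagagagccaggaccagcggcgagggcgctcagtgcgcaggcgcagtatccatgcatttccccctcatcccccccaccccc
Slc16a1: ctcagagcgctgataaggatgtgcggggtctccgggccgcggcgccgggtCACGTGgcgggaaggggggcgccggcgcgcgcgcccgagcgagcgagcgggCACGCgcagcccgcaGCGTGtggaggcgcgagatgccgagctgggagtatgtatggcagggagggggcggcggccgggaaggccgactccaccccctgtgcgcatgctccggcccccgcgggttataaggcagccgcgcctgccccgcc
Pdk1: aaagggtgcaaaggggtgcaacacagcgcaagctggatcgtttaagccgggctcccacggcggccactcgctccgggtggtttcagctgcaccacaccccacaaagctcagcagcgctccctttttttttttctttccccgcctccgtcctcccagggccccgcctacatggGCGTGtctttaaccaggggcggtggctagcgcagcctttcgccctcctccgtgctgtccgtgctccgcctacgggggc
Bnip3: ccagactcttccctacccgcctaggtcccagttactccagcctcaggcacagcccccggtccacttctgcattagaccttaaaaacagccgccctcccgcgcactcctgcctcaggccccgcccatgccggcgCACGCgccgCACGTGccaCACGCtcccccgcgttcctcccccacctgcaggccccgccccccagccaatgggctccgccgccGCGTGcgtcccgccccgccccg
Bnip3 and Slc16a1, which fell without the correction, had 5 and 4 matches in their 250 bases, counting CACGTG once on each strand. Egln3, Eno1 and Pdk1 had 1 each. Among the called genes not shown, Hk1 and P4ha2, which rose, had 3 each and Slc2a1 2. Aldoa and Aldoc, which rose too, had 1 each and Tpi1 none. Kdm3a, which fell, had none. A match is a stretch of letters, not a bound site.

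Glucose enters through Slc2a1 (GLUT1), whose level was 49.9 and 52.3 CPM in wild type and 75.1 and 87.1 CPM in Npas3-/-. The groups did not overlap and the rise was just past the threshold (log2 fold change 0.67, SE 0.20, adjusted p = 0.0495, edgeR). The corrected value was 0.26 with an adjusted p of 0.364. Slc16a1 (MCT1), the carrier that moves lactate and pyruvate with a proton, went from 180.2 and 259.6 CPM to 81.2 and 85.7 CPM. Its main log2 fold change was -1.40 (SE 0.24, adjusted p = 0.0177), and the correction turned it to 0.58 (adjusted p = 0.0994), so that its direction depended on it. Its transcript has 42.9% GC. Slc16a3 (MCT4), the lactate exporter that is a HIF target, was scarce at 5.37 and 3.96 CPM against 6.62 and 7.40 CPM and was not called (adjusted p = 0.222).

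Hexokinase traps glucose as glucose 6-phosphate. Hk1, the constitutive brain isozyme, rose from 238.5 and 262.9 CPM to 402.0 and 411.1 CPM (log2 fold change 0.70, SE 0.19, adjusted p = 0.0435, edgeR; corrected 0.34). Hk2, the inducible isozyme and a HIF target, was at 35.2 and 17.5 CPM against 29.5 and 30.3 CPM, with overlapping groups. Gpi1, the isomerase of the next step, was at 707 and 696 CPM against 931 and 1027 CPM (adjusted p = 0.118).

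Phosphofructokinase makes the committing step and is built from 3 kinds of subunit. Pfkl was at 126.9 and 107.2 CPM against 150.8 and 206.2 CPM, and Pfkm at 306.5 and 358.0 CPM against 385.1 and 445.8 CPM. Pfkp was at 418.8 and 245.5 CPM against 483.3 and 467.7 CPM. Each was higher in both Npas3-/- libraries and none was called, with adjusted p of 0.0980, 0.274 and 0.225. Their corrected log2 fold changes went apart, at 0.12, -0.22 and 1.01, and were not called either (adjusted p = 0.0724 for Pfkp, edgeR). Pfkfb3, which makes the activator fructose 2,6-bisphosphate and is a HIF target, was the 1 enzyme gene with a negative value (-0.33, adjusted p = 0.645). Its libraries overlapped, at 66.3 and 176.4 CPM in wild type and 71.8 and 121.8 CPM in Npas3-/-, and without wild-type replicate 2 its log2 fold change was 0.53.

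Aldoc, the aldolase of astrocytes and a common astrocyte marker (chr11:78322968-78327781, plus strand, GRCm38), rose more than any other enzyme. It was at 260.3 and 374.2 CPM in wild type and at 1445 and 1519 CPM in Npas3-/-, that is 317 ± 80.5 against 1482 ± 52.3 CPM (SD, n = 2 each). This was a 4.67-fold rise (log2 2.22, SE 0.27, adjusted p = 0.0130, edgeR), and the corrected log2 value was 1.93 with an adjusted p of 0.0237. Aldoa, the aldolase of most tissues, rose from 999.5 and 836.5 CPM to 1514 and 1653 CPM (log2 0.79, SE 0.22, adjusted p = 0.0458), but its corrected value was -0.21. A second identifier with the symbol Aldoa had 99 to 143 counts per library and is not included.

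**Figure D2:**
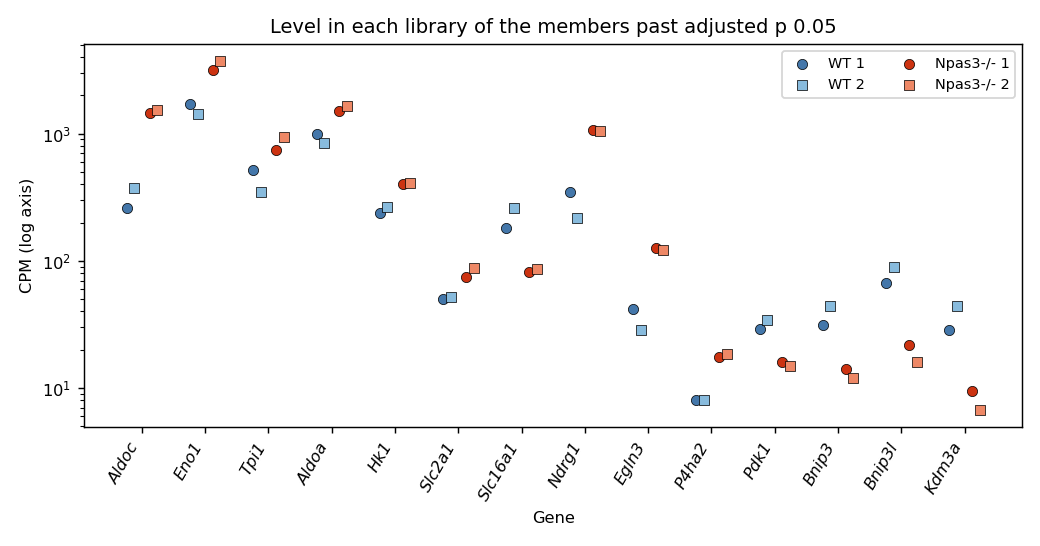
Level (CPM, log axis) of the called genes in each of the 4 libraries, 1 point per library. For each gene the 2 wild-type and the 2 Npas3-/- points lie apart, with Aldoc, Ndrg1 and Egln3 showing the widest gaps upward and Kdm3a and Bnip3l downward.

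Tpi1, which interconverts the triose phosphates, rose from 516.2 and 344.8 CPM to 745.8 and 932.8 CPM (log2 0.96, SE 0.28, adjusted p = 0.0491; corrected 0.21). Pgk1 was at 933 and 694 CPM against 968 and 1176 CPM, and Pgam1 at 728 and 525 CPM against 819.7 and 857 CPM. Neither of these ATP-forming and mutase steps was called, with adjusted p of 0.263 and 0.225. Eno1, the widespread enolase, rose from 1694 and 1419 CPM to 3154 and 3693 CPM, a 2.20-fold rise (SE 0.24 on the log2 scale, adjusted p = 0.0247). Its corrected log2 value was 0.23 (adjusted p = 0.344). Eno2, the neuronal enolase, was at 19.4 and 16.9 CPM against 27.0 and 26.3 CPM and was not called.

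The final steps had high levels and wide spreads. Pkm, the pyruvate kinase gene, was at 1494 and 1169 CPM against 2074 and 2613 CPM (log2 0.82, adjusted p = 0.0583; corrected 0.02, adjusted p = 0.941). Ldha, the lactate dehydrogenase subunit induced by HIF, was at 554.9 and 320.1 CPM against 794.7 and 1074 CPM (log2 1.09, adjusted p = 0.0562; corrected 0.61, adjusted p = 0.166). Without the correction both lay just outside the threshold, with both Npas3-/- libraries above both wild-type ones. Ldhb, the other subunit, was at 777.4 and 798.2 CPM against 940.4 and 938.4 CPM (log2 0.25, adjusted p = 0.356), and its corrected value was -0.53. All 18 enzymes together took 1.06% and 0.915% of a wild-type library and 1.43% and 1.54% of an Npas3-/- library. These shares count only each gene's own identifier and are without the correction. They leave out counts on near-identical genes elsewhere in the genome. For Gapdh such genes held 272180, 202948, 356179 and 341258 counts, against 1088, 1196, 2436 and 1222 on its own identifier. Most counts of the Gapdh family are therefore missing from these shares. The Wilson 95% intervals of these shares, which cover counting error only, were narrow at this depth: 1.056% to 1.061% and 0.913% to 0.917% in wild type, and 1.424% to 1.429% and 1.540% to 1.546% for the Npas3-/- replicates.

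Few of the counts of the Gapdh family fell on Gapdh itself, the dehydrogenase that follows the triose phosphates. The Gapdh identifier held 1088, 1196, 2436 and 1222 counts, or 12.2, 12.8, 29.4 and 15.9 CPM. The genome annotation has 73 genes elsewhere that share at least 300 bases at 95% identity with Gapdh, and 71 of them had counts. Together they held 272180, 202948, 356179 and 341258 counts, which is 99.6%, 99.4%, 99.3% and 99.6% of the family. Of the 73 genes 70 are annotated as pseudogenes, and the most counted was Gm7336, 99.8% identical over 1232 bases, with 51708, 37333, 70963 and 52245 counts. Where the authors' counting placed reads that match several genes is not stated in the sources used here. With the copies added Gapdh was at 3077 and 2180 CPM against 4327 and 4446 CPM (log2 0.74, SE 0.26, adjusted p = 0.0793, edgeR), where its own identifier gave 0.86 (adjusted p = 0.118). Neither value was called.

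**Figure D3:**
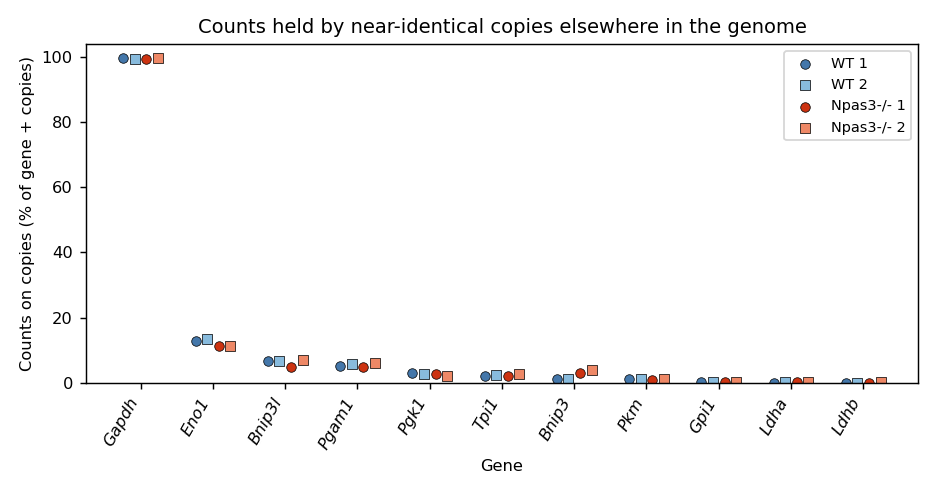
Share of counts (%) that fell on near-identical annotated copies rather than on the gene itself, for the members with such copies in each library. Gapdh stands apart at 99.3% to 99.6%, and Eno1 follows at 11.3% to 13.4%.

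For Eno1 the 3 copies (Eno1b, Gm4735 and Gm5855) held 12.9%, 13.4%, 11.4% and 11.3% of the family's counts, and with them the log2 fold change was 1.11. For the other members with copies the share was at most 7.11%. Adding the copies left the call of each of the 36 genes as it was.

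Among the HIF targets the oxygen sensor Egln3 and the stress-response gene Ndrg1 stood out. Egln3 (PHD3), a prolyl hydroxylase that HIF induces and that feeds back on HIF, was at 41.6 and 28.6 CPM in wild type and 125.9 and 122.4 CPM in Npas3-/-. The 3.54-fold rise (log2 1.82, SE 0.25, adjusted p = 0.0133, edgeR) kept a corrected value of 1.59 (adjusted p = 0.0237). Egln3 lies on chromosome 12 (54178981-54203860), as the targeted gene Npas3 does. Whether the altered Npas3 locus itself changed the level of Egln3 was not tested. Egln1 (PHD2), the main hydroxylase of HIF under normal oxygen, was at 164.1 and 138.0 CPM against 188.8 and 209.2 CPM and was not called (adjusted p = 0.173). Ndrg1 rose from 349.8 and 215.5 CPM to 1075 and 1042 CPM, 3.74-fold (log2 1.90, SE 0.30, adjusted p = 0.0150; corrected 1.61, adjusted p = 0.0249).

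P4ha1 and P4ha2 encode catalytic subunits of collagen prolyl 4-hydroxylase. P4ha2 rose from 8.02 and 8.0 CPM to 17.5 and 18.6 CPM (log2 1.17, SE 0.26, adjusted p = 0.0272; corrected 0.51, adjusted p = 0.192). P4ha1 was at 297.1 and 298.4 CPM against 248.3 and 235.0 CPM (log2 -0.30, adjusted p = 0.252), and the correction turned this to 0.93 with an adjusted p of 0.0301. P4ha1 transcripts have 45.7% GC and P4ha2 transcripts 54.2%.

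Bnip3, Bnip3l, Kdm3a and Pdk1 were the HIF targets that fell. Bnip3 and Bnip3l (NIX) encode receptors on the outer mitochondrial membrane that recruit the autophagy machinery. Bnip3 went from 31.3 and 44.0 CPM to 14.1 and 12.1 CPM (log2 -1.53, SE 0.28, adjusted p = 0.0189, edgeR), and Bnip3l from 67.0 and 89.3 CPM to 21.8 and 16.1 CPM (log2 -2.04, SE 0.27, adjusted p = 0.0130). Kdm3a, a histone H3 lysine 9 demethylase, went from 28.6 and 44.1 CPM to 9.46 and 6.76 CPM (log2 -2.16, SE 0.34, adjusted p = 0.0153). Pdk1, the kinase that shuts off pyruvate dehydrogenase, went from 29.0 and 34.2 CPM to 15.9 and 14.8 CPM (log2 -1.04, SE 0.24, adjusted p = 0.0293). Their transcripts are poor in GC, at 41.6%, 41.9%, 45.5% and 46.4% in that order. After correction none of the 4 was called: Bnip3 stood at 0.01, Bnip3l at -0.18, Kdm3a at -0.72 (adjusted p = 0.0917) and Pdk1 at 0.25.

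Of the other HIF targets Ddit4 (REDD1), an inhibitor of mTORC1, was at 74.96 and 54.1 CPM against 101.8 and 170.2 CPM (log2 1.08, adjusted p = 0.0519; corrected 0.06, adjusted p = 0.857). Higd1a, a small mitochondrial protein, was at 41.2 and 36.8 CPM against 52.2 and 72.2 CPM (log2 0.67, adjusted p = 0.0819; corrected 0.29). The vasodilator peptide gene Adm was at 58.3 and 39.8 CPM against 28.6 and 27.1 CPM (log2 -0.82, adjusted p = 0.0620), and was called lower after correction (-1.28, adjusted p = 0.0291). Mxi1, a MYC antagonist, was at 33.0 and 37.3 CPM against 53.8 and 43.5 CPM (log2 0.47, adjusted p = 0.158), and was called higher after correction (1.74, adjusted p = 0.0237). The libraries overlapped for Vegfa, the classic angiogenic target, at 55.0 and 71.0 CPM against 63.7 and 65.3 CPM, with a log2 fold change of 0.03 and an SE of 0.21. Ankrd37 was counted 48 and 0 times in wild type, 148 and 139 times in Npas3-/-, and was not called (log2 2.73, SE 1.58, adjusted p = 0.225). Its exons overlap those of Lrp2bp and Ufsp2. Exons of other annotated genes also overlap those of Ndrg1, Aldoa, Tpi1, Hk1, Slc2a1 and Bnip3, which were called, of Mxi1, and of some uncalled members. What this did to their counts was not tested.

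Across genes the fold changes followed GC content. Over the 14356 tested genes with at least 1 CPM Spearman's rho between log2 fold change and transcript GC content was 0.73, and the median log2 fold change ran from -2.46 for genes of 40% to 42% GC to 0.75 for those of 56% to 58%. It was 0.75 over the 15 HIF targets and 0.39 over the 18 enzymes, genes of the same 4 libraries that are not independent. With the correction rho over all those genes was 0.04. The median GC content was 53.5% for the enzymes and 50.9% for the HIF targets. Aldoc, Egln3 and Ndrg1, at 51.9%, 51.4% and 52.3%, lie in a GC range where the median of all genes was between 0.22 and 0.47, well under their own values of 1.82 to 2.22.

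**Figure D4:**
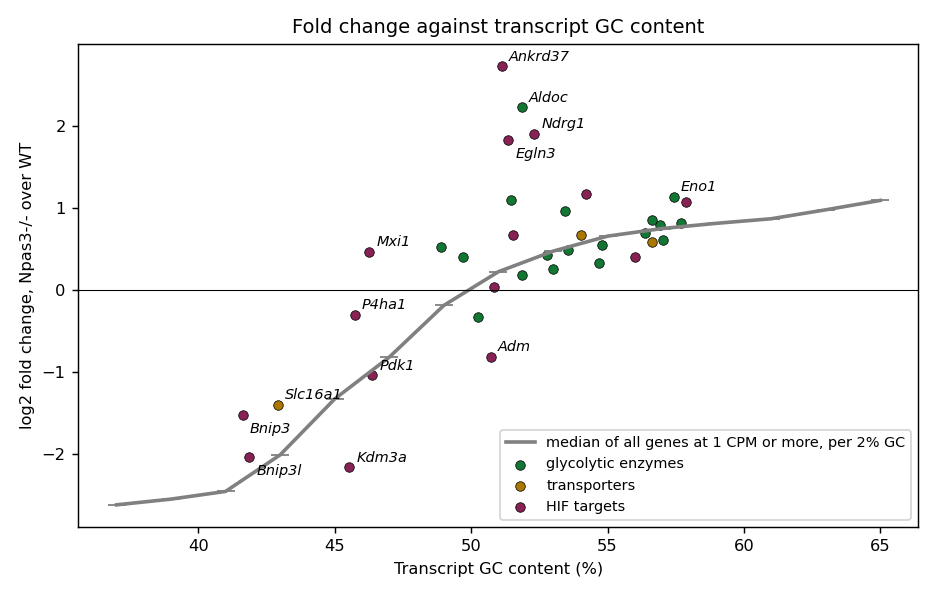
Log2 fold change (Npas3-/- minus wild type) against transcript GC content (%), with the members coloured by role and the median of all tested genes at 1 CPM or more, per 2% of GC, as a line. Bnip3 (-1.53), Bnip3l (-2.04) and Slc16a1 (-1.40), at 41.6% to 42.9% GC, lie where the line stands at -2.46 to -2.01, and Aldoc, Ndrg1 and Egln3 (1.82 to 2.22) where it stands at 0.22 to 0.47.

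Pairs of related genes were compared as shares per kilobase of exon within a library. They depend on the length used, and P4ha2, Pfkp, Hk2 and Eno2 moved by more than 1.5 times between lengths. Aldoc made up 18.9% and 28.5% of the 2 aldolases in wild type and 46.0% and 45.0% in Npas3-/-. Per kilobase of the longest coding transcript its share was 12.6% and 19.9% against 34.7% and 33.8%. Egln3 made up 25.5% and 21.9% of Egln1 and Egln3 together in wild type and 47.4% and 44.1% in Npas3-/-. Ldha took 25.3% and 15.98% of the lactate dehydrogenase pair in wild type and 28.6% and 35.2% in Npas3-/-. P4ha2 was the minor subunit of the pair, at 1.75% and 1.74% against 4.44% and 4.97% (4.6% and 4.57% against 11.2% and 12.4% per kilobase of the longest coding transcript), and Slc16a3 the minor lactate carrier at 2.42% and 1.25% against 6.36% and 6.70%. Within the mitophagy pair Bnip3 took 44.3% and 45.7% against 52.3% and 56.1%. All these shares are without the correction for GC content and length. With it, the log2 fold change was 0.93 for P4ha1 and 0.51 for P4ha2, and 0.58 for Slc16a1 and 0.25 for Slc16a3. On these values both pairs shifted the other way. The corrected values of the aldolase, Egln, lactate dehydrogenase and mitophagy pairs kept the direction of the shares. The shares of the hexokinases and of the phosphofructokinase subunits overlapped between genotypes. An exact two-sided permutation test of 2 samples against 2 cannot give a p below 0.333, and the shares are given as a description, with no test.

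**Figure D5:**
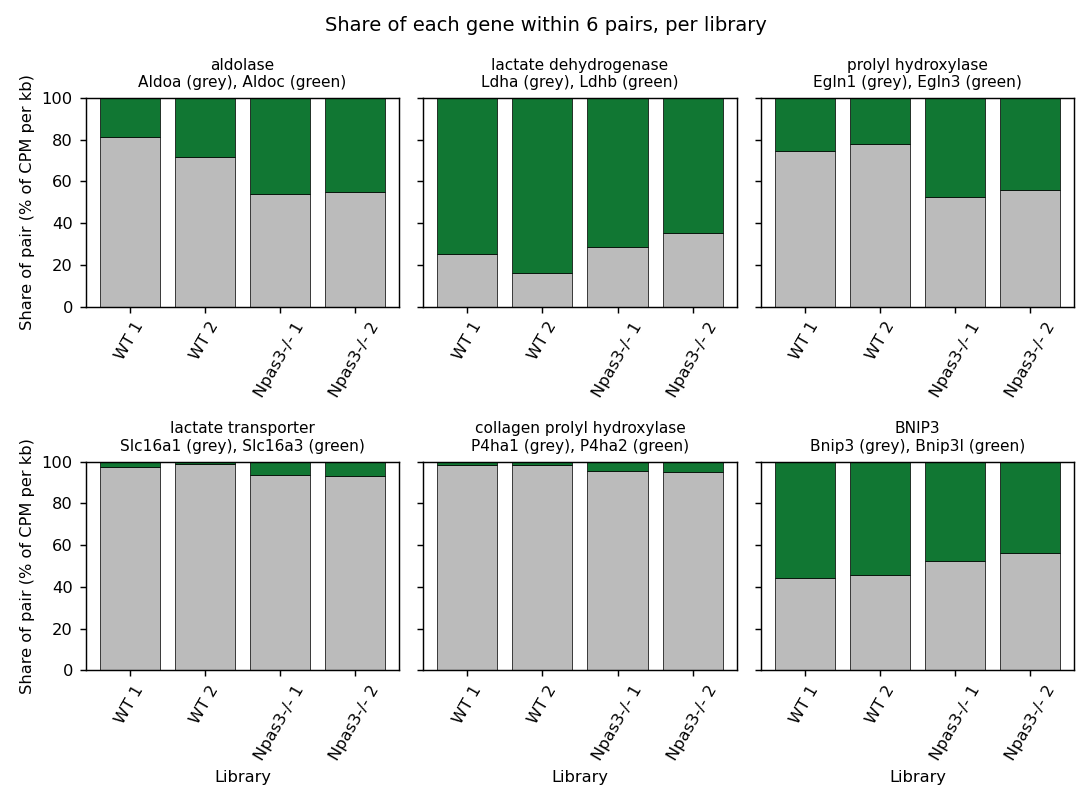
Share (% of CPM per kilobase of exon, without the correction) of each gene within 6 pairs, 1 stacked bar per library. The second aldolase, Aldoc, and the second prolyl hydroxylase, Egln3, take 44.1% to 47.4% of their pairs in the Npas3-/- libraries and 18.9% to 28.5% in the wild-type libraries.

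The regulators of HIF were read from a list of 18 genes, of which 3 were called higher and 6 lower, with a median log2 fold change of -0.41 (corrected: 2 higher, 2 lower). Over all genes tested 11.6% were called higher and 21.5% lower, and 4.54% and 3.82% with the correction. The 3 with the smallest p all fell. Hif1a, the alpha subunit itself, went from 42.5 and 98.9 CPM to 11.9 and 7.84 CPM (log2 -2.84, SE 0.48, adjusted p = 0.0169, edgeR), Cul2, the scaffold of the VHL ubiquitin ligase, from 25.1 and 49.5 CPM to 5.63 and 6.13 CPM (-2.67, adjusted p = 0.0142), and the coactivator Crebbp from 69.6 and 91.2 CPM to 25.1 and 14.4 CPM (-2.03, adjusted p = 0.0166). Hif1a and Cul2 transcripts have 41.3% and 40.6% GC, and their corrected values of -0.53 and -0.46 were not called (adjusted p = 0.142 and 0.231). Crebbp was called with and without the correction (corrected -1.45, adjusted p = 0.0240). Epas1 (HIF-2 alpha), named here after its value was seen, was at 160.8 and 166.1 CPM against 118.2 and 93.9 CPM and was not called (adjusted p = 0.0653).

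Among 53 tested genes of a longer list of HIF targets, 9 were called higher and 11 lower, with a median of 0.20 (corrected: 3 higher, 4 lower), beside 11.6% and 21.5% of all genes (corrected: 4.54% and 3.82%). The smallest p belonged to Anxa1, a phospholipid-binding anti-inflammatory protein, which fell from 37.4 and 36.2 CPM to 3.67 and 4.12 CPM (log2 -3.24, corrected -2.08, adjusted p = 0.0130 and 0.0237). Plod2, a collagen lysyl hydroxylase, fell from 82.7 and 89.1 CPM to 21.3 and 16.1 CPM, and Ugp2, which makes UDP-glucose, from 83.7 and 123.2 CPM to 20.6 and 20.2 CPM (log2 -2.20 and -2.34, adjusted p = 0.0130 for both). Their corrected values of -0.46 and -0.37 were not called.

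Further genes of glucose, pyruvate and lactate handling numbered 41 tested, of which 11 were called higher and 7 lower, with a median of 0.40 (corrected: 4 higher, 1 lower), beside the same 11.6% and 21.5% of all genes (corrected: 4.54% and 3.82%). The 3 with the smallest p all fell. Dld, the shared dehydrogenase subunit of pyruvate dehydrogenase and related complexes, went from 81.9 and 142.6 CPM to 13.3 and 12.5 CPM (log2 -3.12, SE 0.33, adjusted p = 0.0130; corrected -1.23, adjusted p = 0.0237). Pdha1, the catalytic subunit that Pdk1 phosphorylates, went from 290.6 and 340.5 CPM to 110.5 and 110.8 CPM (log2 -1.51, SE 0.20, adjusted p = 0.0130; corrected -0.46, adjusted p = 0.0993). Slc16a4, a monocarboxylate carrier relative, was scarce at 2.79 and 4.74 CPM against 0.398 and 0.325 CPM (log2 -3.38, adjusted p = 0.0146; corrected -1.55, adjusted p = 0.0688).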

How the data were processed

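Per the submitters' processing notes, the authors used Trimmomatic 0.3.8, HISAT2 2.1.0, featureCounts and the build mm10, and deposited 1 table of raw counts per gene. The annotation release, the strand setting and how reads matching several genes were handled are not stated in the sources used here. Columns were matched to samples by title. Gene models, GC content and lengths came from the GENCODE annotation of GRCm38, in which 53274 of 53379 identifiers were found. edgeR 4.0.16 (R 4.3.3; quasi-likelihood, TMM, filterByExpr at a minimum count of 10, no covariate, 2 residual degrees of freedom) compared the genotypes over 4 samples. The SE is the log2 fold change over the square root of F. CPM used TMM-scaled library sizes. The correction fitted natural splines (6 degrees of freedom each) in GC content and log2 length to deviations of log2 CPM (prior count 2), from genes at 1 CPM or more, as offsets. Alternatives were DESeq2 1.42.0 and its size factors, limma-voom (limma 3.58.1), other filters, a replicate block and each library left out. Copies were found with blastn. The 36 genes and the lists were chosen with earlier results of these data known; all 36 are named, and of each further list the 3 tested genes with the smallest p. The single-gene value of 1 marker is not reported here.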

Additional observations from a re-analysis of the deposited data

How the results depend on the processing

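The count of called genes was 6232, and of the 36 members 9 were called higher and 5 lower. Without a filter on low counts 3997 genes were called and 5 members higher, 2 of them enzymes. With a filter of 5 CPM, which dropped Ankrd37, 12 members were called higher (7 enzymes) and 6 lower, and the median log2 fold change of the HIF targets was 0.17. There 2432 genes were called higher and 3547 lower, of 11651 that also passed the main filter. With DESeq2 13 members were called higher and 6 lower, with 5 HIF targets each way, where 3524 and 4848 of 18838 genes were called. With the replicate number as a block 2560 genes were called, 3 members higher and 3 lower, and 1 enzyme higher. The labels do not say that the numbers pair samples: the deviations of same-numbered samples correlated at -0.32. With the pairs crossed, an alternative chosen after the data were seen, 7670 genes were called and 14 members higher (8 enzymes, 5 HIF targets). With each library left out in turn between 0 and 5832 genes were called, 0 to 10 members higher and 0 to 5 lower, 0 to 7 enzymes and 0 to 3 HIF targets higher, with medians of 0.50 to 0.73 for the enzymes and 0.26 to 0.36 for the HIF targets. With the correction for GC content and length 1574 genes were called, 5 members higher (1 enzyme, 4 HIF targets) and 1 lower, with medians of 0.10 and 0.25. With the correction and each library left out, a setting chosen after the data were seen, 5, 21, 868 and 1821 genes were called, 0 to 8 members higher and 0 to 1 lower, 0 to 3 enzymes and 0 to 5 HIF targets higher, with medians of 0.071, 0.072, 0.096 and 0.25 for the enzymes and 0.13, 0.23, 0.25 and 0.35 for the HIF targets. The correction turned the sign of 12 genes: Slc16a1 (0.58), Pfkm (-0.22), Pfkfb3 (0.074), Aldoa (-0.21), Gapdh (-0.11), Pgam1 (-0.23), Eno2 (-0.00016), Ldhb (-0.53), Pdk1 (0.25), Egln1 (-0.066), Bnip3 (0.0073) and P4ha1 (0.93). Vegfa turned to -0.017 with the filter of 5 CPM. With each library left out Vegfa ran from -0.16 to 0.22, Hk2 from -0.25 to 0.75 and Pfkfb3 from -0.89 to 0.53, with Pfkfb3 at 0.0059 without Npas3-/- replicate 1. The cause was not tested. DESeq2's size factors, limma-voom and the copies added turned no sign of the 36.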

Other observations

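Glycogen, the glucose store that astrocytes hold in the brain, was read from a list of 21 genes, of which 20 were tested. Of these 2 were called higher and 6 lower in Npas3-/- (edgeR); their median change was 0.18 on the log2 scale. Over all genes 11.6% were called higher and 21.5% lower. After correction for GC content and length 1 was called higher and none lower, beside 4.54% and 3.82% of all genes. The 3 with the smallest p were Ugp2, given above, Gsk3b, the kinase that inhibits glycogen synthase, and Phkb, a regulatory subunit of phosphorylase kinase. Gsk3b fell from 128.8 and 179.4 CPM to 38.5 and 28.3 CPM (log2 -2.21, corrected -0.55), and Phkb from 63.1 and 117.0 CPM to 15.1 and 11.4 CPM (log2 -2.76, corrected -0.69). Pygb, the brain glycogen phosphorylase, named after its value was seen, rose from 597 and 615 CPM to 1040 and 1064 CPM (log2 0.79, adjusted p = 0.0355; corrected 0.48, adjusted p = 0.104).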
